A study of Mus musculus with 366 samples.

Results

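Vascular calcification regulators are the genes that set whether calcium phosphate is laid down in the arterial wall, and 9 of them were looked up here: Alpl, Enpp1, Mgp, Abcc6, Ank, Nt5e, Bmp2, Bmp4 and Tnfrsf11b. A gene was read from the probe set that the platform annotation gives to its symbol alone, and from the probe set with the highest mean where there were several. This gave 7 of the 9 genes, with 10 of the 45141 probe sets. Alpl and Enpp1 were not analysed here. The 7 genes stand among 17097 genes that have a probe set of their own. The samples were aortas of female Ath-HMDP mice, each the F1 offspring of a strain of the Hybrid Mouse Diversity Panel and C57BL/6J mice carrying the human ApoE-Leiden and CETP transgenes. All mice were 24 weeks old and had been fed chow for 8 weeks and then a Western diet for 16 weeks. RNA came from the aorta between the arch and the mid-abdomen, which according to the paper was cleared of the fat around it. Adipocyte markers were nonetheless high on every array, as given below. The 366 arrays, 1 per mouse, came from 101 strains: 36 BXD, 21 AXB/BXA, 9 CXB, 4 BXH and 31 classical inbred strains. The tested groups below were the F1 of A/J (3 arrays), BALB/cJ (4), C3H/HeJ (8) and DBA/2J (5), which are progenitors of the recombinant inbred sets, and of 23 other classical strains with 3 or more arrays. They were set against the C57BL/6J F1 (6 arrays), which shares the transgenes and the diets and differs from the others in having both genomes from C57BL/6J. Every other F1 still carries a C57BL/6J allele at each autosomal gene, so that 2 copies of a foreign allele were never measured there. The transgenes' promoters are not given in the sources used here.

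Mineral deposition in arteries is held back by inorganic pyrophosphate, by matrix Gla protein and by osteoprotegerin, and is promoted by bone morphogenetic proteins and by the enzymes that destroy pyrophosphate. Pyrophosphate leaves cells through Ank and, by way of released ATP, through the liver transporter Abcc6. Nt5e then makes adenosine from the AMP that is left when ATP is cleaved, and adenosine lowers the activity of the pyrophosphate-degrading phosphatase. Loss of Mgp or of osteoprotegerin, the product of Tnfrsf11b, causes arterial calcification in mice, and MGP binds BMP2 and BMP4.

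Values are log2 intensities, so that a difference of 1 is a doubling of the signal, and intensities of different probe sets are not compared. Mgp was read at 11.58 on average (range 10.18 to 12.95 over 366 arrays), Ank at 9.92 (8.71 to 10.73), Bmp4 at 6.15 (5.11 to 7.59), Nt5e at 4.12 (3.02 to 6.27) and Bmp2 at 4.04 (3.05 to 5.31). Tnfrsf11b at 2.57 and Abcc6 at 2.56 lay under 3.28, the median of the probe sets' means. The deposited table holds no detection calls. Medians of the arrays lay between 3.17 and 3.40. Smooth muscle markers (mean log2 value of Acta2, Myh11, Cnn1 and Lmod1, 4 of 6 listed) ran from 4.94 to 10.61 over arrays, brown adipocyte markers (5 of 6 listed) from 10.53 to 11.80, and 20 arrays of 16 strains were high in hepatocyte markers. General adipocyte markers (4 of 6 listed) ran from 9.62 to 10.64, so that both adipocyte scores lay far above the arrays' medians throughout. Skeletal muscle markers (6 of 6 listed) spread widest, from 3.13 to 12.79, with an SD of 3.02 within strains. The skeletal muscle score correlated at 0.90 in size with the first principal component of differences between mice of a strain. That component held 17.5% of their variance, and this score was not used as a covariate. Smooth muscle genes define the labelled tissue, and their score differed widely between arrays. In such bulk tissue fewer cells of a type and less RNA per cell cannot be told apart.

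The genes lie apart from each other in the GRCm38.p6 assembly: Mgp at chr6:136872435-136875823, Abcc6 at chr7:45974110-46030491, Nt5e at chr9:88327609-88372089, Bmp2 at chr2:133552159-133562896 and Bmp4 at chr14:46383525-46390669. Ank at chr15:27466677-27594909 and Tnfrsf11b at chr15:54250619-54278484 share a chromosome. The 2 promoters below are shown because Bmp4 correlated with Mgp and Bmp2 over strains, whereas no correlation of Ank with these genes was called. They are RefSeq sequences of 300 bases each around the start of the gene (GRCm38.p6), which the table held for 3 of the 7 genes, Bmp4 at chr14:46390620-46390919 on the minus strand and Ank at chr15:27466427-27466726 on the plus strand. Capitals mark a GC box (GGGCGG on either strand) or an E box (CACGTG).
Bmp4: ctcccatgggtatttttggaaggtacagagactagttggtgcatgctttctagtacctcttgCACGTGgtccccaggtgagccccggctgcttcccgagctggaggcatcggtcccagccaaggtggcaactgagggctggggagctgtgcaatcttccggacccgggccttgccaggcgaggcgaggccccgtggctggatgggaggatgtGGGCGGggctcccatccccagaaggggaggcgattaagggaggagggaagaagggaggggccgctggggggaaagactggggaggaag
Ank: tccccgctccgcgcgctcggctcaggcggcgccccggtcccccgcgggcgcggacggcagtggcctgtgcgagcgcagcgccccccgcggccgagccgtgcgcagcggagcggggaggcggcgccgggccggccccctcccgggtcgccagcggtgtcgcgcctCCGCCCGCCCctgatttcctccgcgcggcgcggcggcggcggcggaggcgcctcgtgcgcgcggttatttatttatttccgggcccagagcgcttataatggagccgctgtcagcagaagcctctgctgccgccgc
Bmp4 has 1 GC box and 1 E box in this window, and Ank has 2 overlapping GC boxes and no E box. Of 32851 RefSeq promoters of this length, 35.7% hold a GC box and 7.2% hold an E box.

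All 7 genes differed among strains. In limma's F test over 360 arrays of the 95 strains with 2 or more arrays, the adjusted p was 5.67e-16 for Mgp, 3.35e-09 for Ank, 4.1e-09 for Bmp4, 6.45e-09 for Bmp2, 0.000143 for Tnfrsf11b, 0.000161 for Nt5e and 0.002 for Abcc6. A gene is called here where its p, adjusted over all probe sets, is under 0.05. Of all probe sets 77.0% were called in this test, so that being called sets none of these genes apart. The share of the variance that lay among strains was 41% for Mgp, which exceeded that of 89.7% of probe sets. It was 29.4% for Ank, 29.1% for Bmp4, 28.9% for Bmp2, 18.2% for Tnfrsf11b, 17.8% for Nt5e and 14.6% for Abcc6. The median was 17.9% over all probe sets and 20.8% over the 17097 genes, read from 1 probe set each. The other probe sets carried less: 8.92% and 13.2% for Nt5e, both called, and 4.35% for Tnfrsf11b, which was not called (adjusted p = 0.198). Their strain means correlated with those of the probe sets used at r = 0.34 and -0.09 for Nt5e and at -0.01 for Tnfrsf11b, so that the strain order of these genes rests on 1 probe set each. With the smooth muscle and brown adipocyte scores as covariates, all 7 genes were still called (71.8% of all probe sets), and the share of Mgp was 21.2%, that of Bmp4 23.3%, that of Bmp2 21.2% and that of Ank 31.7%.

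**Figure D1:**
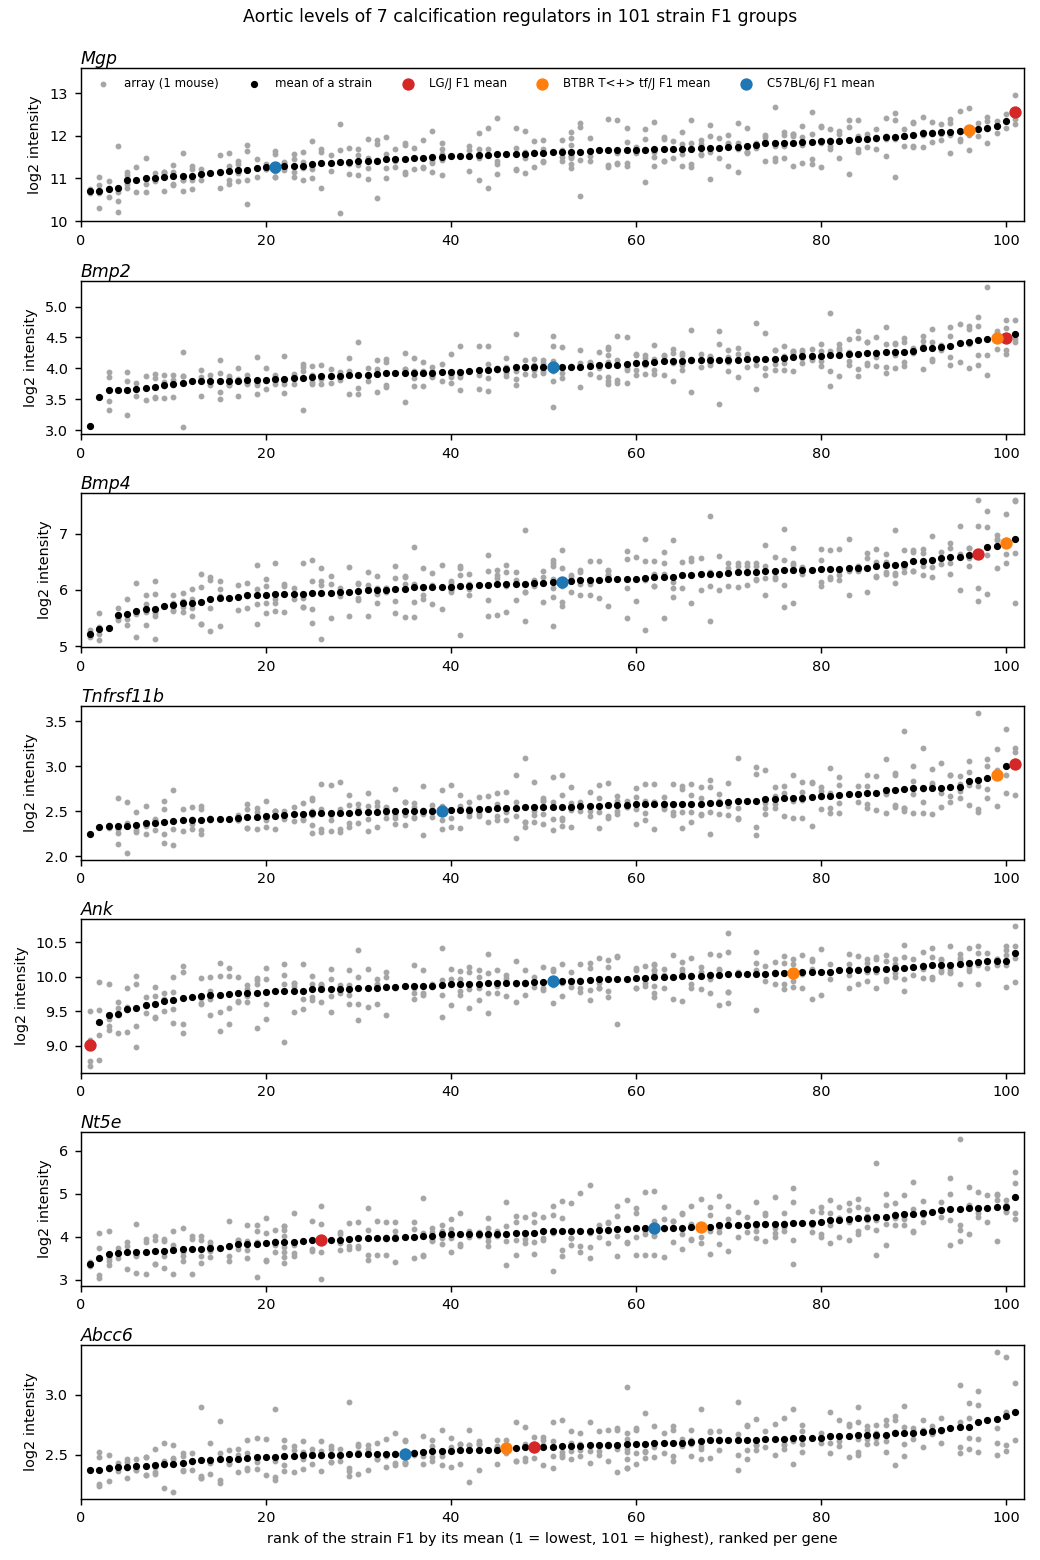
Log2 intensity (vertical axes) of 7 regulators in 101 strain F1 groups, ranked per gene by their mean (horizontal axis). Grey points are arrays of single mice, black points are strain means, and the coloured points are LG/J, BTBR T<+> tf/J and C57BL/6J. LG/J is the highest strain for Mgp (12.55) and Tnfrsf11b (3.03) and the lowest for Ank (9.02).

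Mgp, which encodes matrix Gla protein, spanned 3.59-fold between its lowest and highest strain F1. Among strains with 3 or more arrays, the LG/J F1 was highest at 12.27, 12.40, 12.59 and 12.95 in its 4 aortas, followed by BXD1/TyJ at 12.07, 12.25, 12.26 and 12.34 and BXA2/PgnJ at 11.84, 12.15, 12.35 and 12.43. These neighbours overlapped each other, and the mean of the 2 BXD18/TyJ arrays, 12.35, lay between those of LG/J and BXD1/TyJ. The lowest strains with 3 or more arrays were BXA16/PgnJ at 10.65, 10.71 and 10.76, BXD75/RwwJ at 10.30, 10.67, 10.84 and 11.04, and BXD69/RwwJ at 10.56, 10.75, 10.77 and 10.93. The 3 high strains ranked 1, 8 and 3 of 101 in the smooth muscle score (10.21, 9.48 and 9.68), and the 3 low strains ranked 85, 97 and 100 (6.93, 6.24 and 5.91). No aorta of the low strains reached any aorta of the high strains in Mgp. The strains were picked by their Mgp means, so that this separation follows from the choice and is no separate result.

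The BMP ligands spanned 3.20-fold (Bmp4) and 2.80-fold (Bmp2) over strains, the span of Bmp2 being 1.88-fold over the strains with 3 or more arrays. Bmp4 was highest in the AKR/J F1, whose 4 aortas were read at 5.76, 6.66, 7.58 and 7.59 (SD 0.88). BTBR T<+> tf/J followed at 6.48, 6.63, 6.89 and 7.34 and SWR/J at 6.39, 6.89, 6.90 and 6.97. The low end among strains with 3 or more arrays was held by BXA16/PgnJ at 5.16, 5.20 and 5.29, BXH6/TyJ at 5.11, 5.22, 5.34 and 5.58, and BXD69/RwwJ at 5.46, 5.50, 5.56 and 5.68. BXA16/PgnJ and BXD69/RwwJ were thus low in both Mgp and Bmp4. Bmp2 was highest in SM/J at 4.42, 4.48, 4.55 and 4.78, in BTBR T<+> tf/J at 4.32, 4.48, 4.57 and 4.60 and in LG/J at 4.23, 4.30, 4.65 and 4.79. It was lowest, among strains with 3 or more arrays, in AXB19b/PgnJ (mean 3.65), CXB3/ByJ (3.66) and AXB2/PgnJ (3.70). The single array of BXA1/PgnJ read 3.07, over 3 SD under the mean of the strains.

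Tnfrsf11b, the decoy receptor for RANKL, spanned 1.71-fold around its low level. LG/J at 2.68, 3.06, 3.16 and 3.20 and BXD24/TyJ-Cep290<rd16>/J at 2.70, 2.90 and 3.42 lay over 3 SD above the mean of the strains, and BTBR T<+> tf/J was next at 2.56, 2.93, 2.96 and 3.19. The 3 strains overlapped. The lowest means among strains with 3 or more arrays were 2.34 in BXA8/PgnJ, 2.34 in AXB2/PgnJ and 2.35 in BXD69/RwwJ.

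The pyrophosphate and adenosine genes followed other strain orders. Ank, which exports pyrophosphate and citrate, spanned 2.50-fold, and LG/J at 8.71, 8.78, 9.08 and 9.50 was the only strain over 3 SD from the mean of the strains. BUB/BnJ at 8.80, 9.16, 9.51 and 9.92 and BXD50/RwwJ at 9.23, 9.29, 9.39 and 9.89 followed, and PL/J was highest at 9.92, 10.27, 10.45 and 10.73. Nt5e, the ecto-nucleotidase CD73, spanned 2.94-fold, with C58/J at 4.41, 4.54, 5.25 and 5.50 on top and BXD13/TyJ at 3.31, 3.39 and 3.41 at the bottom. Abcc6 spanned 1.41-fold. Its highest strain with 3 or more arrays was CXB13/HiAJ at 2.53, 2.58, 2.86 and 3.32 and its lowest was BXD84/RwwJ at 2.24, 2.25, 2.48 and 2.52.

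Within the strain sets, where a recombinant inbred set segregates the alleles of its 2 progenitors, Mgp and Bmp4 were called in the AXB/BXA (adjusted p = 0.000163 and 0.000133) and in the BXD (0.000188 and 0.0158). Bmp2 was called in the AXB/BXA (0.0247) and Ank in the BXD (0.00204), which makes 3 of 7 genes in each set, against 40.1% of all probe sets in the AXB/BXA and 42.5% in the BXD. Among the 4 BXH strains only Ank was called (0.0388, against 6.89% of all probe sets). Among the CXB no gene was called by limma (12.9% of all probe sets), and 3 had an unadjusted p under 0.05, as did 13306 probe sets. Among the classical inbred strains all but Nt5e (0.0731) were called, against 61.5% of all probe sets. The variance share of Mgp was 45.2% in the AXB/BXA, 34.7% in the BXD and 40.8% in the classical strains.

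The F1 of the 4 progenitors showed no called difference from the C57BL/6J F1 in any of the 7 genes. The background was 4.86% of probe sets for A/J, 7.08% for BALB/cJ, 8.85% for C3H/HeJ and 3.53% for DBA/2J, and at an unadjusted p under 0.05 only Mgp in C3H/HeJ passed, against 8248, 9536, 9550 and 7054 probe sets in the 4 contrasts. The p-values measure the spread between these mice. Mgp ran from 11.25 to 12.10 in the 8 C3H/HeJ F1 aortas (median 11.53) and from 11.03 to 11.64 in the 6 C57BL/6J F1 aortas (median 11.17). The groups overlapped, and the difference was 0.35 ± 0.15 (SE, adjusted p = 0.16 by limma, two-sided exact permutation p = 0.046). Mgp averaged 11.62 ± 0.21 in BALB/cJ, 11.52 ± 0.29 in DBA/2J and 11.15 ± 0.39 in A/J F1 aortas, against 11.27 ± 0.27 in C57BL/6J F1 aortas (SD, n = 4, 5, 3 and 6). With the smooth muscle and brown adipocyte scores as covariates the sign of the difference in Mgp turned, to -0.23 in C3H/HeJ, -0.34 in BALB/cJ and -0.22 in DBA/2J, none of them called.

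Abcc6, of which DBA/2J and C3H/HeJ mice are known to carry an allele that yields less protein, was read at 2.63, 2.68, 2.69, 2.70 and 2.72 in DBA/2J F1 aortas and at 2.42, 2.43, 2.44, 2.53, 2.61 and 2.62 in C57BL/6J F1 aortas. The difference was 0.18 ± 0.09 (SE, adjusted p = 0.371 by limma, exact permutation p = 0.00866) and was not called. The exact permutation p-values are not adjusted for the number of genes and strains looked at. In the C3H/HeJ F1 the difference was 0.08 ± 0.08 (adjusted p = 0.684), and in BALB/cJ 0.19 ± 0.10 (adjusted p = 0.262, exact permutation p = 0.019). These values lie at the low end of the scale, and an RNA probe set does not read the protein. Of the 5 DBA/2J F1 arrays 2 were high in hepatocyte markers.

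**Figure D2:**
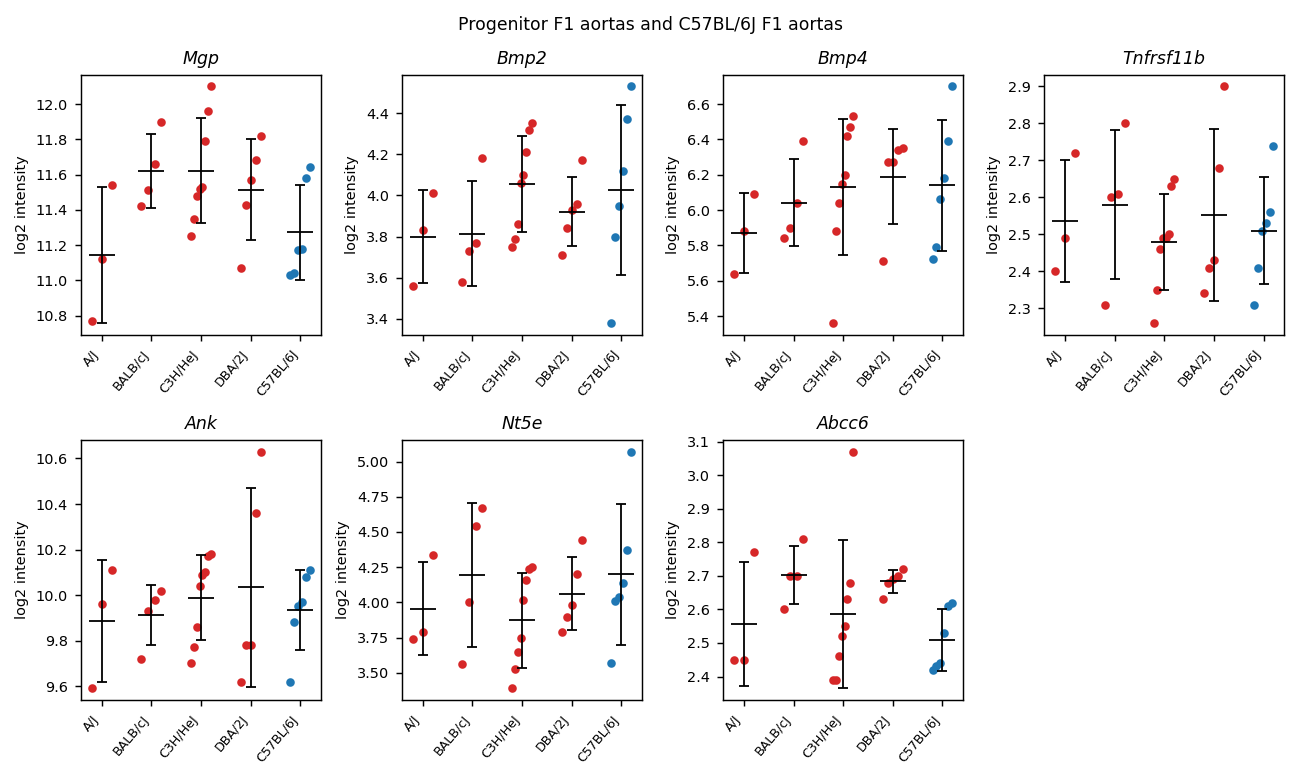
Log2 intensity (vertical axes) of 7 regulators in the F1 aortas of 4 progenitors (red) and of C57BL/6J (blue). Points are single aortas, and bars give the mean and SD of 3, 4, 8, 5 and 6 aortas. In Abcc6 the DBA/2J aortas lie between 2.63 and 2.72, and the difference from C57BL/6J was not called.

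Of the other phosphate and adenosine genes, 3 of the 8 found rose in C3H/HeJ and 2 in DBA/2J, and none fell in these. Their median difference was 0.28 in C3H/HeJ and 0.12 in DBA/2J, against -0.02 and -0.00 over all probe sets. In A/J and BALB/cJ no gene of the list was called, with medians of 0.15 and 0.16 against -0.01 and -0.02. Slc20a1, a sodium-phosphate cotransporter, averaged 7.20 in C3H/HeJ and 6.79 in DBA/2J F1 aortas, against 5.81 in C57BL/6J F1 aortas (differences 1.39 and 0.98, adjusted p = 0.000129 and 0.0183). Xpr1, a phosphate exporter, averaged 7.25 in C3H/HeJ and 6.66 in C57BL/6J F1 aortas (adjusted p = 4.25e-05). Slc29a1, an adenosine transporter, averaged 7.56 in DBA/2J and 6.80 in C57BL/6J F1 aortas (adjusted p = 7.65e-05). Of the 5 DBA/2J F1 arrays 2 were high in hepatocyte markers, and fewer probe sets were called in DBA/2J without such arrays, as given below. Of 7 mineralisation inhibitors and RANKL signalling genes, 2 rose in C3H/HeJ, 1 rose in BALB/cJ, 1 fell in A/J and none was called in DBA/2J. Sost, which encodes sclerostin, rose in BALB/cJ (7.28 against 4.83 in C57BL/6J, adjusted p = 0.0214) and in C3H/HeJ (7.05, adjusted p = 0.00987). Tnfrsf11a, the receptor RANK, averaged 3.41 in C3H/HeJ and 3.05 in C57BL/6J F1 aortas (adjusted p = 0.0142), and Vkorc1, which recycles vitamin K, averaged 8.25 in A/J and 8.74 in C57BL/6J F1 aortas (adjusted p = 0.011). Of 23 genes of BMP signalling, 2 rose in C3H/HeJ, 2 rose in DBA/2J, 2 fell in BALB/cJ and 1 fell in A/J, beside 8.85%, 3.53%, 7.08% and 4.86% of all probe sets called in these contrasts. Acvrl1, an endothelial BMP receptor, averaged 4.23 in A/J and 4.41 in BALB/cJ, against 4.90 in C57BL/6J. Of 16 osteochondrogenic genes only Bglap, in BALB/cJ, was called (3.61 in BALB/cJ, 3.94 in C57BL/6J). The smooth muscle score averaged 8.61 in A/J, 9.03 in BALB/cJ, 8.93 in C3H/HeJ and 8.37 in DBA/2J, against 6.84 in C57BL/6J, which ranked 86 of 101 strains. In a fit with the smooth muscle and brown adipocyte scores as covariates, an alternative chosen after the data were seen, Bmp2 was called lower in A/J (-0.69), BALB/cJ (-0.82) and DBA/2J (-0.52) and Mgp in A/J (-0.63). In that fit 4.86% of all probe sets were called in A/J, 2.57% in BALB/cJ, 2.30% in C3H/HeJ and 4.75% in DBA/2J.

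Among the 23 other classical strains, Mgp was higher than in C57BL/6J in 21, Bmp2 in 20, Bmp4 in 17, Tnfrsf11b in 16, Nt5e and Abcc6 in 13 each and Ank in 10. C57BL/6J itself ranked 81 of 101 strains in Mgp, 51 in Bmp2 and 50 in Bmp4. Such counts were not made for all probe sets, whose median difference lay between -0.03 and 0.01 in each strain. Of the 161 tests of a gene in a strain 13 were called. With array weights 25 were called, and with the smooth muscle and brown adipocyte scores as covariates 3. Array weights also raised the share of all probe sets called in the F test, to 88.3% against 77.0%. Their share over all probe sets in the present contrasts is not given here, so that the 25 are no result about these genes. Over all probe sets 6.02% of such tests were called without the scores and 5.06% with them, and all these contrasts share the 6 C57BL/6J aortas. The calls fell in 6 strains, LG/J and BTBR T<+> tf/J with 4 genes each, AKR/J with 2 and KK/HlJ, BUB/BnJ and SM/J with 1 each. Calls were upward for Mgp (4), Bmp2 (3), Bmp4 (2) and Tnfrsf11b (2) and downward for Ank (2). Nt5e and Abcc6 had none, with differences between -0.33 and 0.73 for Nt5e and between -0.12 and 0.17 for Abcc6.

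**Figure D3:**
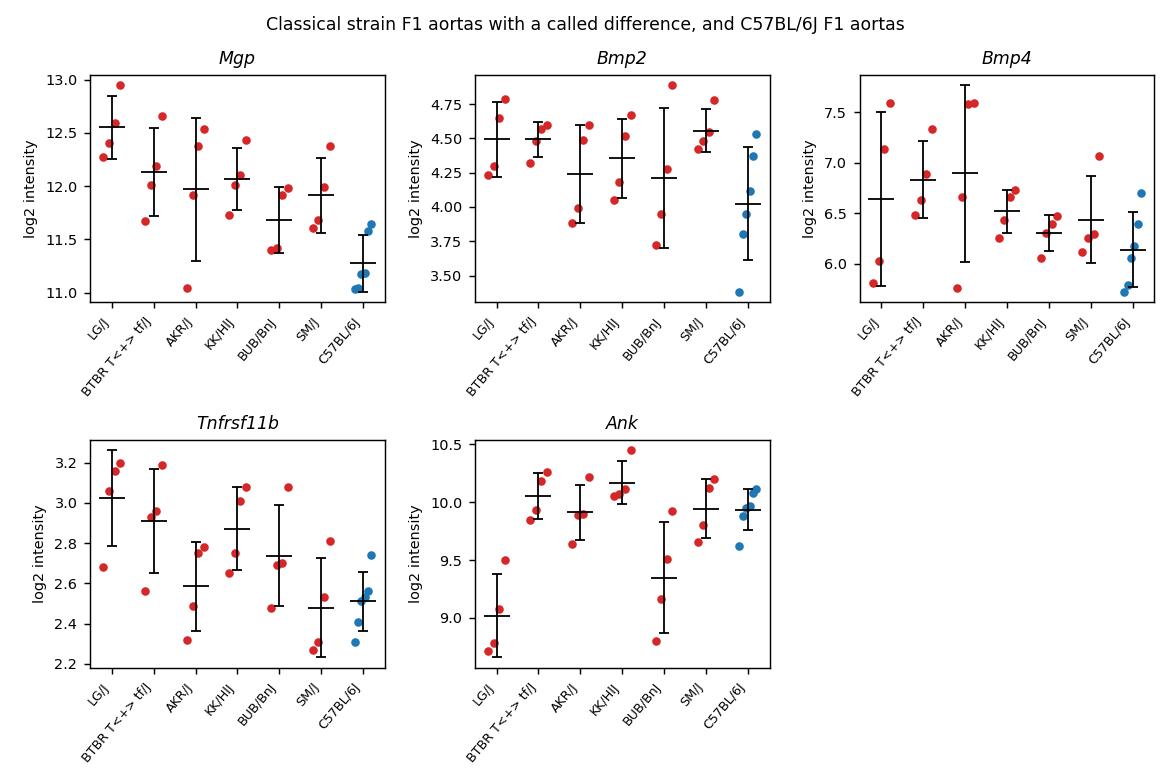
Log2 intensity (vertical axes) of 5 regulators in F1 aortas of the 6 classical strains with a called difference (red, 4 aortas each) and of C57BL/6J (blue, 6 aortas). Points are single aortas and bars give the mean and SD. The 4 LG/J aortas lie above all C57BL/6J aortas in Mgp and below all of them in Ank.

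The LG/J F1 moved most. Mgp was read at 12.27, 12.40, 12.59 and 12.95 in LG/J F1 aortas, against 11.03, 11.04, 11.17, 11.18, 11.58 and 11.64 in C57BL/6J F1 aortas, a 2.43-fold rise with no overlap (adjusted p = 1.09e-05). Ank was read at 8.71, 8.78, 9.08 and 9.50 in LG/J, against 9.62, 9.88, 9.95, 9.97, 10.08 and 10.11 in C57BL/6J, again with no overlap (0.53-fold, adjusted p = 3.34e-06). Tnfrsf11b rose by 0.52 ± 0.13 (SE, adjusted p = 0.00105) and Bmp2 by 0.46 ± 0.16 (adjusted p = 0.0288), both with overlapping aortas. Bmp4 was read at 5.81, 6.03, 7.14 and 7.59 in LG/J, so that 2 aortas lay within and 2 above the C57BL/6J range of 5.72 to 6.70, and it was not called. LG/J had 19.5% of all probe sets called, the highest share of the 23 strains. The call in Bmp2 was lost without LG/J replicate 1 (0.41) or replicate 4 (0.36) and without C57BL/6J replicate 2 (0.33) or replicate 3 (0.42), and the other 3 held on leaving out each of the 10 aortas.

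Of 23 BMP signalling genes 10 rose in LG/J and none fell, beside 19.5% of all probe sets called in either direction, and their median difference was 0.29, against -0.02 over all probe sets. The 4 with the largest differences were Bmpr1b, a type I receptor (3.93 in LG/J, 2.75 in C57BL/6J), Bambi, a decoy receptor (5.06 in LG/J, 3.93 in C57BL/6J), Id3, a BMP target (9.17 in LG/J, 8.19 in C57BL/6J), and Crim1, a transmembrane BMP antagonist (8.55 in LG/J, 7.68 in C57BL/6J). Sost averaged 9.21 in LG/J and 4.83 in C57BL/6J, and Gas6, a vitamin K dependent ligand, averaged 9.22 in LG/J and 8.32 in C57BL/6J. Car2, a carbonic anhydrase of osteoclasts, fell (6.39 in LG/J, 7.44 in C57BL/6J). Of 8 phosphate and adenosine genes, Entpd1, an ectonucleotidase that acts ahead of Nt5e, was among 3 that rose, with Slc20a1, and Slc29a1 and Phospho1 fell. Of 16 osteochondrogenic genes Comp, Sparc and Ibsp rose (4.45, 12.04 and 2.71 in LG/J, against 3.60, 11.58 and 2.41 in C57BL/6J), a count of 3 that lies near the background share. The median difference was 0.30 for the phosphate and adenosine genes, 0.01 for the 7 mineralisation inhibitors and RANKL signalling genes and 0.15 for the osteochondrogenic genes.

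The smooth muscle score of the LG/J aortas ran from 9.85 to 10.61, the highest mean of all strains, against 5.03 to 8.39 in the C57BL/6J aortas. The brown adipocyte score ran from 10.53 to 10.79 in LG/J, the lowest mean of all strains, against 11.32 to 11.56 in C57BL/6J. With both scores as covariates the difference in Mgp was 0.06 (adjusted p = 0.856), that in Bmp2 -0.04 (0.897) and that in Tnfrsf11b 0.30 (0.14), and none was called. The difference in Ank stayed called at -0.70 (adjusted p = 0.00453), and Nt5e, not called without the scores (-0.28, adjusted p = 0.576), was called at -0.92 (adjusted p = 0.0267).

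BTBR T<+> tf/J had a similar pattern without Ank. Mgp was read at 11.67, 12.01, 12.19 and 12.66 in BTBR T<+> tf/J F1 aortas, above all C57BL/6J aortas (difference 0.86 ± 0.25 SE, adjusted p = 0.0106, against 10.1% of probe sets called). Bmp4 rose by 0.70 (adjusted p = 0.0426), Bmp2 by 0.47 (0.0466) and Tnfrsf11b by 0.40 (0.0282), each with overlapping aortas. Of the BMP signalling genes 4 rose, among them Bmpr1b, Crim1 and Twsg1, and Id1 fell (8.18 in BTBR T<+> tf/J, 8.88 in C57BL/6J). Sost averaged 8.42 in BTBR T<+> tf/J and 4.83 in C57BL/6J, and Cytl1, a cartilage cytokine, averaged 8.34 in BTBR T<+> tf/J and 7.14 in C57BL/6J. The smooth muscle score ran from 8.60 to 10.30 and the brown adipocyte score from 10.78 to 11.09, which ranked 6 and 100 of 101. None of the 4 regulators was called with the scores as covariates, and the difference in Mgp was then -0.08. Without BTBR T<+> tf/J replicate 4 none of them was called (Mgp 0.68, Bmp4 0.53, Bmp2 0.43, Tnfrsf11b 0.38). Bmp4 also lost its call without replicate 1 (0.68), Bmp2 without replicate 2 (0.44) or 3 (0.47) and Tnfrsf11b without replicate 1 (0.39) or 2 (0.31). Of the C57BL/6J aortas, leaving out replicate 1 ended the call in Bmp2 (0.48), replicate 2 those in Bmp2 (0.34), Bmp4 (0.68) and Tnfrsf11b (0.38), replicate 3 those in Bmp2 (0.42) and Bmp4 (0.63), replicate 4 those in Bmp2 (0.45) and Bmp4 (0.61), and replicate 6 that in Tnfrsf11b (0.36).

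The other calls fell in AKR/J, KK/HlJ, SM/J and BUB/BnJ. In AKR/J Mgp rose by 0.70 (adjusted p = 0.0342) and Bmp4 by 0.76 (0.0171), against 15.9% of probe sets called. With the scores as covariates the difference in Mgp was -0.15. Both calls were lost without AKR/J replicate 3 (Mgp 0.51, Bmp4 0.53) or replicate 4 (Mgp 0.56, Bmp4 0.53). Mgp was also not called without AKR/J replicate 2 (0.71) or without C57BL/6J replicate 1 (0.68), 2 (0.65), 3 (0.68) or 4 (0.65). In KK/HlJ Mgp was read at 11.73, 12.01, 12.10 and 12.43, above all C57BL/6J aortas (difference 0.80, adjusted p = 0.0218, against 8.71% of probe sets), and the call was lost without KK/HlJ replicate 1 (0.68) or 4 (0.79). In SM/J Bmp2 rose by 0.53 (adjusted p = 0.0355, against 4.53% of probe sets), and was not called without SM/J replicate 1 (0.46), 2 (0.53) or 4 (0.56) or C57BL/6J replicate 1 (0.55), 2 (0.40), 3 (0.48) or 4 (0.52). In BUB/BnJ Ank fell by 0.59 (adjusted p = 0.00983, against 10% of probe sets), and was not called without BUB/BnJ replicate 2 (-0.41) or 4 (-0.53). Of these only Ank in BUB/BnJ stayed called with the scores as covariates (-0.50, adjusted p = 0.0346).

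Over the means of all 101 strains, 12 of the 21 pairs of regulators correlated, 6 positively and 6 negatively. The permutations treat strains as unrelated and of equal weight, although many share progenitors and 6 strains have 1 array. Their p-values take no account of this. The smallest called r was 0.24 in size, and 31.4% of the pairs of a regulator with any other of the 17097 genes had an r at least as large. That share was 46.6% for Mgp, 44.8% for Abcc6, 43.9% for Bmp2, 33.3% for Bmp4, 19.4% for Ank, 18.5% for Tnfrsf11b and 13% for Nt5e of the other genes. The pairs among Mgp, Bmp2, Bmp4 and Tnfrsf11b were all positive and called. The closest pair was Mgp and Bmp4 with r = 0.59 and rho = 0.61 (permutation p = 1e-05 for each, the smallest that 100000 permutations can give, adjusted p = 0.000105 and 7e-05). Bmp2 and Bmp4 followed with r = 0.56 and rho = 0.56 (permutation p = 1e-05 for each, adjusted p = 0.000105 and 7e-05), and Mgp and Bmp2 with r = 0.46 and rho = 0.54 (permutation p = 2e-05 and 1e-05, adjusted p = 0.00014 and 7e-05). Without the 2 strains farthest from the median of the first gene these r were 0.55, 0.51 and 0.44. Tnfrsf11b correlated with Mgp (r = 0.38, rho = 0.34, permutation p = 0.00012 and 0.00053, adjusted p = 0.00063 and 0.00223), with Bmp4 (r = 0.35, rho = 0.30, permutation p = 0.00038 and 0.0026, adjusted p = 0.0016 and 0.00602) and with Bmp2 (r = 0.30, rho = 0.32, permutation p = 0.0023 and 0.0013, adjusted p = 0.00614 and 0.00405). Without the 2 farthest strains r was 0.31 for Mgp, 0.33 for Bmp4 and 0.40 for Bmp2. Tnfrsf11b was read at 2.57 on average, under the median of the probe sets' means. Its other probe set correlated at -0.01 with the one used, which limits the reading of its pairs.

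Within the strain sets Mgp and Bmp4 gave r = 0.73 in the 21 AXB/BXA, 0.56 in the 36 BXD and 0.51 in the 31 classical strains, and -0.09 in the 9 CXB. Bmp2 and Bmp4 gave 0.58, 0.31, 0.60 and 0.22, and Mgp and Bmp2 gave 0.38, 0.37, 0.63 and -0.04, in the same order of sets. The labels give no batch within which to repeat these values. Among 360 mice, taken as differences from their strain mean, Mgp and Bmp4 correlated at 0.60, Mgp and Tnfrsf11b at 0.37, Mgp and Bmp2 at 0.30, Bmp2 and Bmp4 at 0.26 and Bmp4 and Tnfrsf11b at 0.25, all called, whereas Bmp2 and Tnfrsf11b gave 0.08 (adjusted p = 0.29).

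Abcc6 held 5 of the 6 negative pairs, all with an r between 0.24 and 0.32 in size. Abcc6 was read at 2.56 on average, under the median of the probe sets' means, which limits the reading of these pairs. It gave r = -0.32 with Bmp2 (rho = -0.34), -0.30 with Mgp (-0.30), -0.28 with Nt5e (-0.32), -0.26 with Bmp4 (-0.31) and -0.24 with Ank (-0.26), with permutation p between 0.001 and 0.014 for r and between 0.00044 and 0.0081 for rho (adjusted p between 0.00353 and 0.025 and between 0.00223 and 0.0155). Among mice of a strain only the pair with Bmp2 was called (-0.20). With the smooth muscle and brown adipocyte scores taken out of the strain means, Abcc6 gave -0.01 with Mgp, -0.16 with Bmp4 and -0.20 with Ank, none called. The pairs with Nt5e (-0.32) and Bmp2 (-0.27) stayed called. Ank and Tnfrsf11b had r = -0.25 (permutation p = 0.012, adjusted p = 0.0233) and rho = -0.15 (0.15 and 0.192), and r was -0.09 without LG/J and BUB/BnJ, so that this relation rests on those strains. The 9 pairs not called by r had r between -0.01 and 0.20. Of these Nt5e and Bmp2 (r = 0.18) were called by rho (0.23, permutation p = 0.019, adjusted p = 0.033). Among mice of a strain Nt5e correlated with Bmp4 (0.27, adjusted p = 0.000262), Ank (-0.18, 0.00824), Bmp2 (0.17, 0.0205) and Mgp (0.15, 0.0354). Over strain means the pair of Nt5e and Bmp4 had r = 0.20 and rho = 0.18 and was not called.

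**Figure D4:**
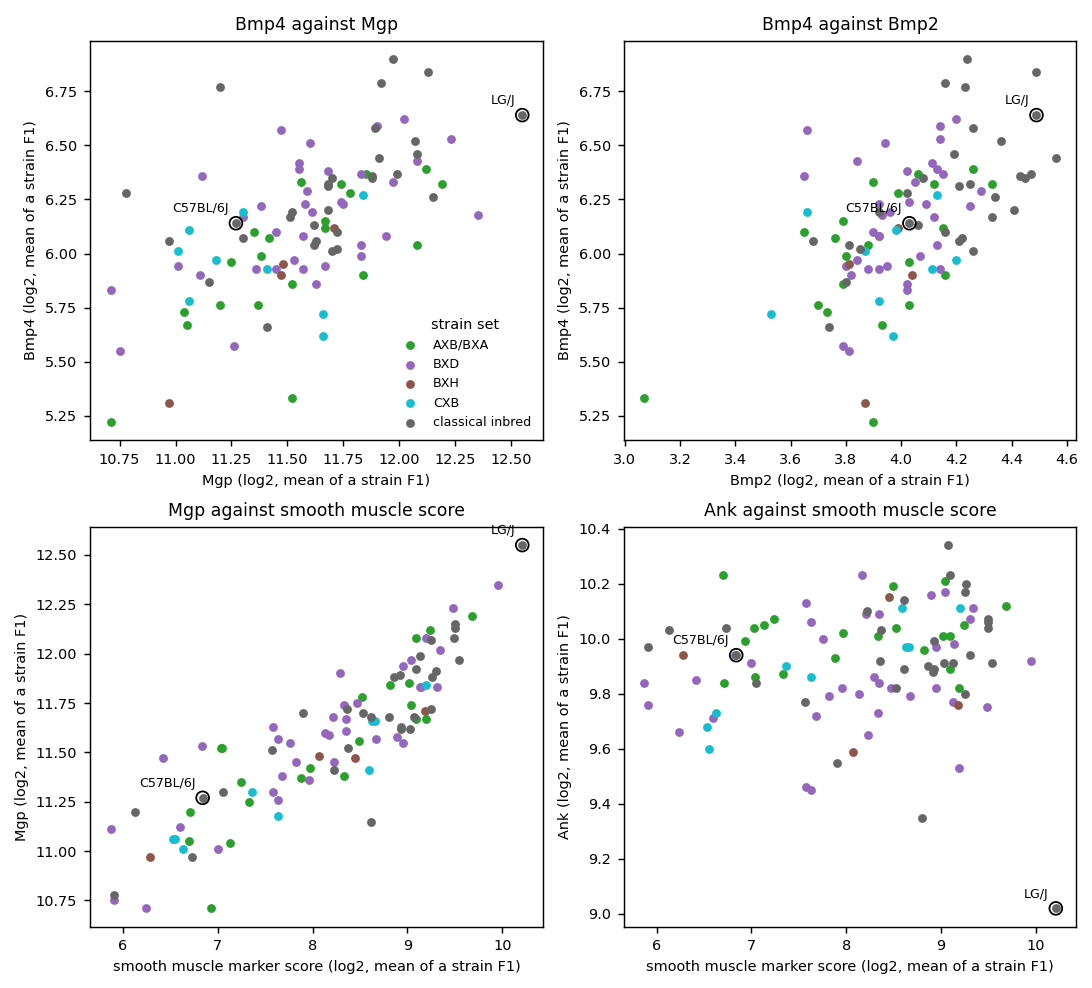
Each point is the mean of a strain F1 (101 strains, coloured by strain set), with both axes in log2 intensity or, for the smooth muscle score, mean log2 intensity of 4 markers. Bmp4 rises with Mgp (r = 0.59) and with Bmp2 (r = 0.56), Mgp rises with the smooth muscle score (r = 0.88), and Ank has r = 0.13 and rho = 0.24 with it, neither called, with LG/J at the lower right.

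Of 84 pairs of a regulator and a cell type score, 34 correlated, the smallest with an r of 0.23 in size. Over all genes 23.7% of such pairs had an r at least as large, 55.2% for the smooth muscle and 38.5% for the brown adipocyte score. Mgp and the smooth muscle score gave r = 0.88 and rho = 0.88 (permutation p = 1e-05 for each, adjusted p = 9.33e-05 and 7.64e-05), 0.88 without BXA16/PgnJ and LG/J, 0.85 to 0.95 within the AXB/BXA, BXD, CXB and classical strains, and 0.79 among mice of a strain. Arterial smooth muscle is a known site of Mgp expression. The smooth muscle and brown adipocyte scores together, which correlated with each other at r = -0.46, shared 78.1% of the variance of the strain means of Mgp, 38.0% of that of Bmp2, 27.7% of Bmp4, 14.3% of Tnfrsf11b, 13.0% of Abcc6, 9.5% of Nt5e and 4.5% of Ank. Bmp2 gave r = 0.47 with the smooth muscle and -0.57 with the brown adipocyte score, and Bmp4 gave 0.47 and -0.43 (permutation p between 1e-05 and 3e-05, adjusted p between 9.33e-05 and 0.00021). Their rho were 0.50, -0.57, 0.50 and -0.36 (permutation p between 1e-05 and 0.00024, adjusted p between 7.64e-05 and 0.00126). Ank gave r = 0.13 with the smooth muscle score (rho = 0.24, permutation p = 0.2 and 0.017, adjusted p = 0.38 and 0.0539), and r = 0.27 without BUB/BnJ and LG/J (permutation p = 0.0061). Within the strain sets this r was 0.11 in the AXB/BXA, 0.24 in the BXD, 0.94 in the 9 CXB and -0.10 in the classical strains. Abcc6 gave r = -0.35 with the smooth muscle score (rho = -0.39, permutation p = 0.00038 and 0.0001, adjusted p = 0.00193 and 0.0006), and -0.12, not called, among mice of a strain.

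Bmp4 correlated most with the chondrocyte score (r = 0.61, rho = 0.65, permutation p = 1e-05 for each, adjusted p = 9.33e-05 and 7.64e-05) and next with the fibroblast score (r = 0.54, rho = 0.50, with the same permutation and adjusted p). Of the chondrocyte markers Comp had a biweight midcorrelation of 0.68 with Bmp4 and Col2a1, which defines cartilage, one of -0.27. With both smooth muscle and brown adipocyte scores taken out of the strain means, 6 of the 21 pairs were called in place of 12. Mgp and Bmp4 then gave r = 0.40 (adjusted p = 0.00084), Bmp2 and Bmp4 0.37 (0.00136) and Mgp and Tnfrsf11b 0.34 (0.00378), whereas Mgp and Bmp2 gave 0.04 (0.861) and Mgp and Abcc6 -0.01 (0.979).

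**Figure D5:**
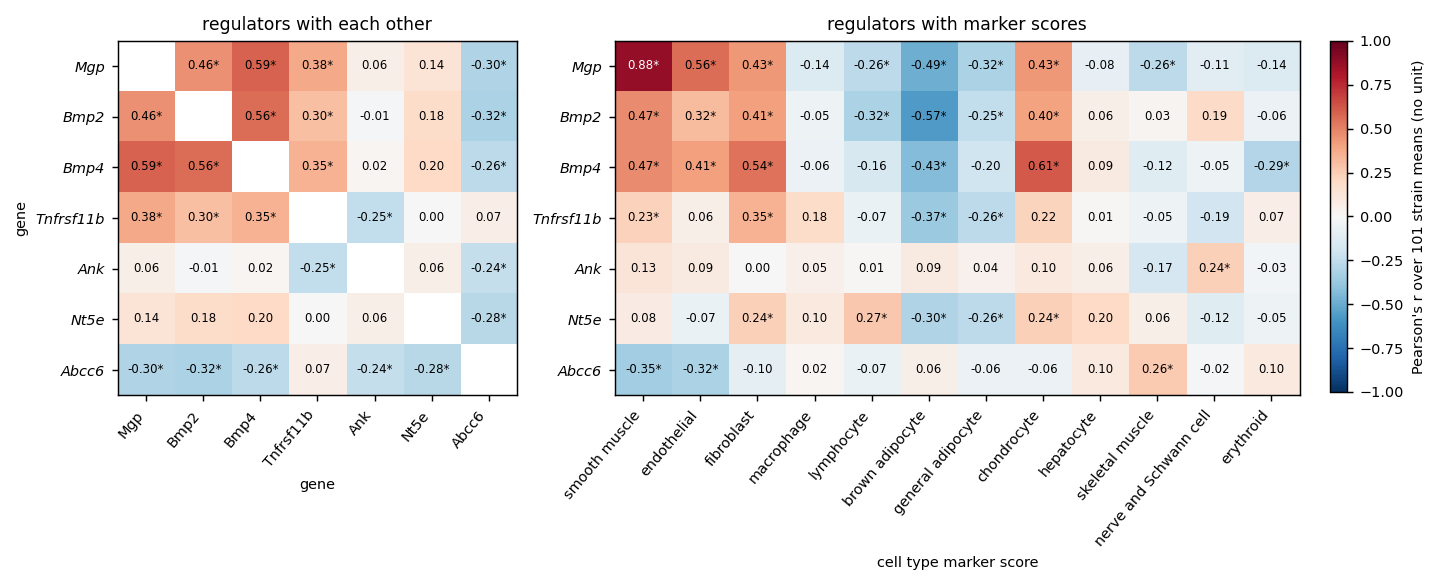
Pearson's r over 101 strain means between 7 regulators (left) and between each of them and 12 cell type marker scores (right), with the colour scale from -1 to 1 and no unit. A star marks an adjusted p under 0.05. The strongest cell is Mgp with the smooth muscle score (0.88), and Ank has 1 starred score, nerve and Schwann cell (0.24).

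The genes whose strain means were most like each regulator, out of 17096 others and ranked by biweight midcorrelation over 101 strains, differed from one regulator to the next. For Mgp they were Cald1 at 0.93, the actin-binding protein caldesmon, Col4a5 at 0.91, a basement membrane collagen, and Ltbp1 at 0.91, which stores latent TGF-beta, and Endog was most opposite at -0.77. For Bmp4 they were Gas6 at 0.74, Timp2 at 0.74, an inhibitor of matrix proteases, and Fmod at 0.73, a collagen-binding proteoglycan. For Bmp2 they were Hnrnpul2 at 0.74, Itgav at 0.73, an integrin subunit, and Daam1 at 0.72. For Ank they were Slc2a5 at 0.83, a fructose transporter, Slc38a10 at 0.74 and Acly at 0.73, which makes cytosolic acetyl-CoA from citrate. The nearest genes of Abcc6 (Nkx2-1 at 0.64), Tnfrsf11b (Crip1 at 0.59) and Nt5e (Zdhhc20 at 0.50) were less close. Abcc6 and Tnfrsf11b were read under the median of the probe sets' means, which limits what their neighbours can show. Above 0.5 lay 1205 genes for Mgp, 900 for Bmp2, 541 for Bmp4, 346 for Abcc6, 93 for Ank, 6 for Tnfrsf11b and 1 for Nt5e.

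Of the 23 BMP signalling genes 18 had a positive midcorrelation with Mgp, with a median of 0.41, against -0.10 over all genes, and the highest values for Twsg1 at 0.87, a secreted BMP modulator, and Bambi at 0.75. Of the mineralisation inhibitors and RANKL signalling genes 4 of 7 were positive (median 0.30), with Sost at 0.89 and Gas6 at 0.68, while Car2 gave -0.46. Of the phosphate and adenosine genes 6 of 8 were positive (median 0.15), with Entpd1 at 0.84 and Xpr1 at 0.78. Of the osteochondrogenic genes 7 of 16 were positive (median -0.07), between -0.40 for Sp7 and 0.68 for Col1a1. With Bmp2 the highest were Acvr1 at 0.66, a type I receptor, and Gas6 at 0.65, and with Bmp4 Gas6 at 0.74 and Comp at 0.68. The same genes differed among strains in limma's F test: 22 of 23 BMP signalling genes were called (Chrd, adjusted p = 0.0515, was not), with a median variance share of 34.3%, all 8 phosphate and adenosine genes (39.6%), 6 of 7 mineralisation inhibitors and RANKL signalling genes (24.2%) and 11 of 16 osteochondrogenic genes (20.4%), against the 77.0% of all probe sets. When only the 22570 more strongly read probe sets were tested, 95.8% were called. The counts for the BMP signalling and the phosphate and adenosine genes therefore do not set these lists apart. The osteochondrogenic genes not called were Msx2, Dlx5, Col10a1, Acan and Chad, with means between 2.46 and 2.64.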

How the data were processed

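Expression was measured on 1 Affymetrix mouse array per aorta from total RNA, as biotin-labelled cRNA. The deposited values were log2 intensities per probe set, for which the submitters' processing notes name GCOS and RMA without versions. RMA removes background and forces all arrays to 1 distribution, so that a shift shared by most genes is lost. Gene names came from the platform annotation, in which 28898 probe sets had 1 symbol, 551 several and 15692 none. Differences were tested with limma 3.58.1 in R 4.3.3 on all 45141 probe sets, with Benjamini-Hochberg adjustment and a threshold of 0.05: an F test over strains with 2 or more arrays, and contrasts with the C57BL/6J F1. Strain means were correlated with 100000 permutations and adjusted over 21 pairs of genes, fewer than planned because 7 of 9 genes were found, and over 84 pairs of a gene and a score. Python 3.11.15, numpy 2.4.6, pandas 2.3.3 and scipy 1.17.1 were used, and scripts were tested on simulated data. The genes and lists were chosen with earlier results of these data known. Named were all members, per gene the 3 highest and 3 lowest strains with 3 or more arrays and strains over 3 SD, the 3 nearest and the most opposite gene, and up to 4 called genes a list. LG/J and BTBR T<+> tf/J were chosen for the lists after their values were seen. Signal over background could not be judged per array, and the number of arrays limits the precision. Array weights, an intensity trend, filters on low values and hepatocyte-high arrays, all probe sets of a gene, rank and biweight correlations, and leaving out single arrays were the alternatives.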

Additional observations from a re-analysis of the deposited data

Results flagged for a closer look

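The groups were each regulator in the progenitors and C57BL/6J, in its highest and lowest strains and in the strains where it was called. Groups of 4 to 8 aortas were looked at, 67 in all. In 4 of the 67, 1 aorta stood apart from the rest by Dixon's criterion at 95%, which chance alone gives in about 1 of 20 groups. Abcc6 was read at 3.07 in 1 of the 8 C3H/HeJ F1 aortas, and the other 7 lay between 2.39 and 2.68. Bmp4 was read at 5.71 in 1 of the 5 DBA/2J F1 aortas, and the other 4 lay between 6.27 and 6.35. Nt5e was read at 3.89 in 1 of the 4 AKR/J F1 aortas, with the other 3 at 4.86 or above. Bmp4 was read at 6.39 in 1 of the 4 SWR/J F1 aortas, with the others between 6.89 and 6.97.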

How the results depend on the processing

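With the smooth muscle and brown adipocyte scores as covariates, an alternative chosen after the data were seen, 3 calls in place of 13 were made over the classical strains, Ank in BUB/BnJ and LG/J and, new, Nt5e in LG/J (-0.92). Regulators called were then 2 in A/J, 1 in BALB/cJ and 1 in DBA/2J, against none without the scores, and 1159 probe sets were called in BALB/cJ and 1037 in C3H/HeJ, against 3194 and 3993. Signs turned for Mgp in AKR/J (-0.15), BALB/cJ (-0.34), BTBR T<+> tf/J (-0.08), C3H/HeJ (-0.23) and DBA/2J (-0.22) and for Bmp2 in LG/J (-0.04). With the scores taken out of the strain means, 6 pairs were called in place of 12. Among mice of a strain Abcc6 and Ank gave 0.10 and Ank and Tnfrsf11b 0.02. Array weights gave 25 calls over the classical strains and 5133 probe sets in DBA/2J, against 1594. In the F test 88.3% of all probe sets were called with array weights, against 77.0%. Leaving out the hepatocyte-high arrays gave 667 probe sets in DBA/2J. Testing only the 22570 probe sets above the median gave 21625 in the F test, against 34765 of all 45141. The called share was thus higher, at 95.8% against 77.0%. Leaving out single arrays gave 1017 to 2150 probe sets in A/J (2195 with all arrays) and 2004 to 3379 in BALB/cJ, and differences of -0.06 to 0.10 for Abcc6 and -0.33 to 0.06 for Mgp in A/J. The cause was not tested. No paired analysis was possible because mouse numbers only name animals. Low signal limits Abcc6 and Tnfrsf11b.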
